A study of Mus musculus with 9 samples.

Results

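The core circadian clock loop was followed in mouse liver through 10 genes: Arntl (also called Bmal1), Clock, Npas2, Per1, Per2, Per3, Cry1, Cry2, Nr1d1 and Nr1d2. They were chosen by name, as the transcription factors of the loop and their repressors, and all probe sets that the platform annotation gives to these genes alone were taken. All 10 were on the array, with 23 of the 45037 probe sets, and they are 10 of the 18193 genes with a symbol. The livers came from KKAy mice, an obese strain that carries the yellow agouti allele and serves as a model of type 2 diabetes. The mice were 8 weeks old and, per the labels' protocols of every array but BI replicate 2, were fed a chow with 34% fat. In the BI group they were injected intraperitoneally with 100 µL of culture medium (DMEM) holding insulin at 40 µg/mL, 11% of it as biomineralized insulin (the BI form). In the insulin group they were given the same volume and concentration of plain insulin. The third group is labelled with the treatment none and is called untreated here, although the control mice of the protocol were given medium alone. Each group had 3 arrays. The hour of the injection, the hour at which the livers were taken and the feeding state are not given in the sources used here. A light-dark cycle, of 12 h, is stated for 1 array only, BI replicate 2, in a growth protocol that describes rats and does not give this chow; that array was kept in its labelled group. Whether an array holds RNA of 1 animal or of a pool is not stated either, and p-values therefore reflect only how far these samples differed, in part perhaps technically.

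The loop keeps daily time in almost every cell. ARNTL pairs with CLOCK, or with the related NPAS2, and the pair binds E-boxes in the promoters of the Per and Cry genes, whose proteins return to the nucleus and block the pair. The same pair switches on Nr1d1 and Nr1d2, which encode the nuclear receptors REV-ERB alpha and beta, and these receptors silence Arntl, Npas2 and Clock by binding receptor elements. In liver this gives large daily swings of transcript level, in which Arntl and Npas2 are high when the REV-ERB and Per transcripts are low. Clock and Cry2 are known to swing little.

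Promoters are shown for 5 targets of the ARNTL pair, because the results set the arrays on which these genes were high beside those for Arntl and Npas2. The 250 bases before the transcription start are printed in lower case from RefSeq (GRCm38.p6), and capitals mark the motif letters searched on both strands: the E-box CACGTG, which reads the same on both strands; the variant E-box, spelled CACGTT or, on the opposite strand, AACGTG; the receptor element, spelled AGGTCA or, on the opposite strand, TGACCT; and the D-box of DBP, TEF and HLF, spelled TTATGTAA or, on the opposite strand, TTACATAA.
Per1, chr11:69098699-69098948, plus strand: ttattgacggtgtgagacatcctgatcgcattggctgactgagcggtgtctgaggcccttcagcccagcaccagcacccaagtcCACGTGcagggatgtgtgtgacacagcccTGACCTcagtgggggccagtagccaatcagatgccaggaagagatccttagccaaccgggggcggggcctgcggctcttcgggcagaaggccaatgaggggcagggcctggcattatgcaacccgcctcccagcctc
Per3, chr4:151044666-151044915, minus strand: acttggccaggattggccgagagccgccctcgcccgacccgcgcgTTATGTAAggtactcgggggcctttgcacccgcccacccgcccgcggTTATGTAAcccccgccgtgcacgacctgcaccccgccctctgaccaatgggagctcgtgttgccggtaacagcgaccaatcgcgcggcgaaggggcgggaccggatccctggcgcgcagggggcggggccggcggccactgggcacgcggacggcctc
Cry1, chr10:85185055-85185304, minus strand: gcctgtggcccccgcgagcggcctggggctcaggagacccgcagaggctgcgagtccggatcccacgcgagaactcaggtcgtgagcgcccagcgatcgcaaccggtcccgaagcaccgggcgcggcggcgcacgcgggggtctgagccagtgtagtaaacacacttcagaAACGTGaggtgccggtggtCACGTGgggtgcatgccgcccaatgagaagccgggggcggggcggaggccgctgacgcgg
Nr1d1, chr11:98775378-98775627, minus strand: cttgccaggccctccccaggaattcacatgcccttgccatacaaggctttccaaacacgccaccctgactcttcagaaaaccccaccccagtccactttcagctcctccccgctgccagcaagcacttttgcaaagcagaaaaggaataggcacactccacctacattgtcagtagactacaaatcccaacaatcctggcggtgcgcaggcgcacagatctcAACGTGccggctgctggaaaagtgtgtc
Nr1d2, chr14:18239107-18239356, minus strand: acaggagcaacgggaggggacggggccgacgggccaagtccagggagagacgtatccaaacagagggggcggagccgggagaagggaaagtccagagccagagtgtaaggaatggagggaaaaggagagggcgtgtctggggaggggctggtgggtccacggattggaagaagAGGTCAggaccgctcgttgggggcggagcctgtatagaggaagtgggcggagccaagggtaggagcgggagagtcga
Windows were at hand for 9 of the 10 members. The E-box was found in 2 of these 9 genes, Per1 at 166 bases and Cry1 at 60 bases before the start, against 6.86% of the 27025 genes with a window (6.02% of all 32851 promoter windows of this length). The variant E-box was in Cry1 (79 bases), Cry2 (166 bases) and Nr1d1 (28 bases), against 4.5% of genes (3.85% of windows). The D-box stood at 205 and at 158 bases before the start of Per3, against 0.977% of genes (0.819% of windows). The receptor element was in Per1 (137 bases), Nr1d2 (77 bases) and 1 of the 3 windows of Clock (119 bases), against 15.8% of genes (14.0% of windows). Per1 has a second window, which held none. The motifs marked did not overlap each other, and the windows of Arntl and Npas2 held none of these letters. Only these exact letters were searched, and full receptor elements were not. The search therefore cannot show whether any of these promoters holds or lacks a REV-ERB element.

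The median log2 signal of an array was 6.11 to 6.30. Of the marker lists, 5 measured hepatocyte genes had a median level of 15.15 to 15.48 over the arrays, with Alb at 15.15 to 15.45, which fits the label liver. The 5 measured lymphocyte genes had a median of 3.21 to 5.50, though Ptprc among them lay at 9.33 to 10.54. Medians were 9.51 to 10.22 for Kupffer cell and macrophage genes and 9.47 to 10.63 for stellate cell and fibroblast genes. They were 7.62 to 9.29 for endothelial, 8.13 to 11.29 for neutrophil and 5.19 to 6.43 for cholangiocyte genes. Whether dim signals stood above background is not known, since detection calls were not used here. In these bulk samples fewer cells of a type and less RNA per cell cannot be told apart. Values below are log2 signals of the probe set with the highest mean of each gene unless another is named, and levels are compared between arrays, never between genes.

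The activators were lowest on 1 insulin array and their groups overlapped. Arntl encodes the partner that both CLOCK and NPAS2 need. Its signal was 9.75, 10.20 and 9.63 on the BI arrays (replicates 1 to 3), 8.46, 9.54 and 10.03 on the insulin arrays, and 9.45, 9.26 and 9.99 on the untreated arrays. Insulin replicate 1 was the lowest of the 9 arrays and BI replicate 2 the highest, and each pair of groups overlapped. Npas2, whose protein can stand in for CLOCK, had 8.01, 9.01 and 7.42 with BI, 5.03, 7.42 and 8.77 with insulin, and 7.70, 6.80 and 8.13 without treatment. The distance between its lowest array, insulin replicate 1, and its highest, BI replicate 2, was 3.98, the widest of the 10 genes. Insulin replicates 1 and 3, of the same group, were the lowest and the second highest array. Clock, the histone acetyltransferase of the pair, stayed within 0.55 over the 9 arrays, at 9.98, 9.93 and 9.80 with BI, 9.60, 9.67 and 10.15 with insulin, and 9.94, 9.65 and 9.91 without treatment. It too was lowest on insulin replicate 1.

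The Per genes encode the period proteins, the repressors whose turnover times the loop, and all 3 were highest on insulin replicate 1. Per1 had 7.54, 5.54 and 7.94 on the BI arrays, 8.29, 7.55 and 7.95 on the insulin arrays, and 8.11, 6.53 and 7.12 on the untreated arrays. BI replicate 2 was the lowest array, followed by untreated replicate 2. Per2 had 7.51, 8.73 and 8.86 with BI, 9.62, 8.74 and 7.99 with insulin, and 8.61, 9.48 and 9.33 without treatment. Its lowest arrays were BI replicate 1 and insulin replicate 3. Per3 had 6.43, 6.93 and 7.32 with BI, 8.79, 7.61 and 5.99 with insulin, and 7.64, 7.69 and 6.35 without treatment. Here the insulin group held both the highest and the lowest of the 9 arrays, replicates 1 and 3.

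The cryptochromes, the other repressors of the loop, had different arrays at their ends. Cry1 had 9.24, 10.57 and 9.15 with BI, 8.44, 8.75 and 9.41 with insulin, and 9.33, 9.30 and 9.43 without treatment. The untreated arrays were close together (SD 0.07, n = 3), BI replicate 2 stood above all others, and insulin replicate 1 was again the lowest. Cry2 had 7.01, 7.94 and 7.62 with BI, 7.70, 7.63 and 7.91 with insulin, and 7.91, 7.70 and 7.49 without treatment. Its range of 0.93 was set by BI replicate 1 at the low end.

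Both REV-ERB genes were highest on insulin replicate 1. Nr1d2 had 12.01, 11.25 and 12.50 on the BI arrays, 12.89, 12.44 and 11.95 on the insulin arrays, and 12.34, 12.41 and 11.80 on the untreated arrays. BI replicate 2 was the lowest. Nr1d1 was represented by 1 probe set with a mean of 5.32, below every array median, and had 4.03, 5.63 and 4.72 with BI, 7.42, 6.32 and 3.58 with insulin, and 5.87, 3.48 and 6.81 without treatment. Its insulin and untreated groups each held arrays more than 3 log2 units apart, and its values carry the uncertainty of dim signals.

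**Figure D1:**
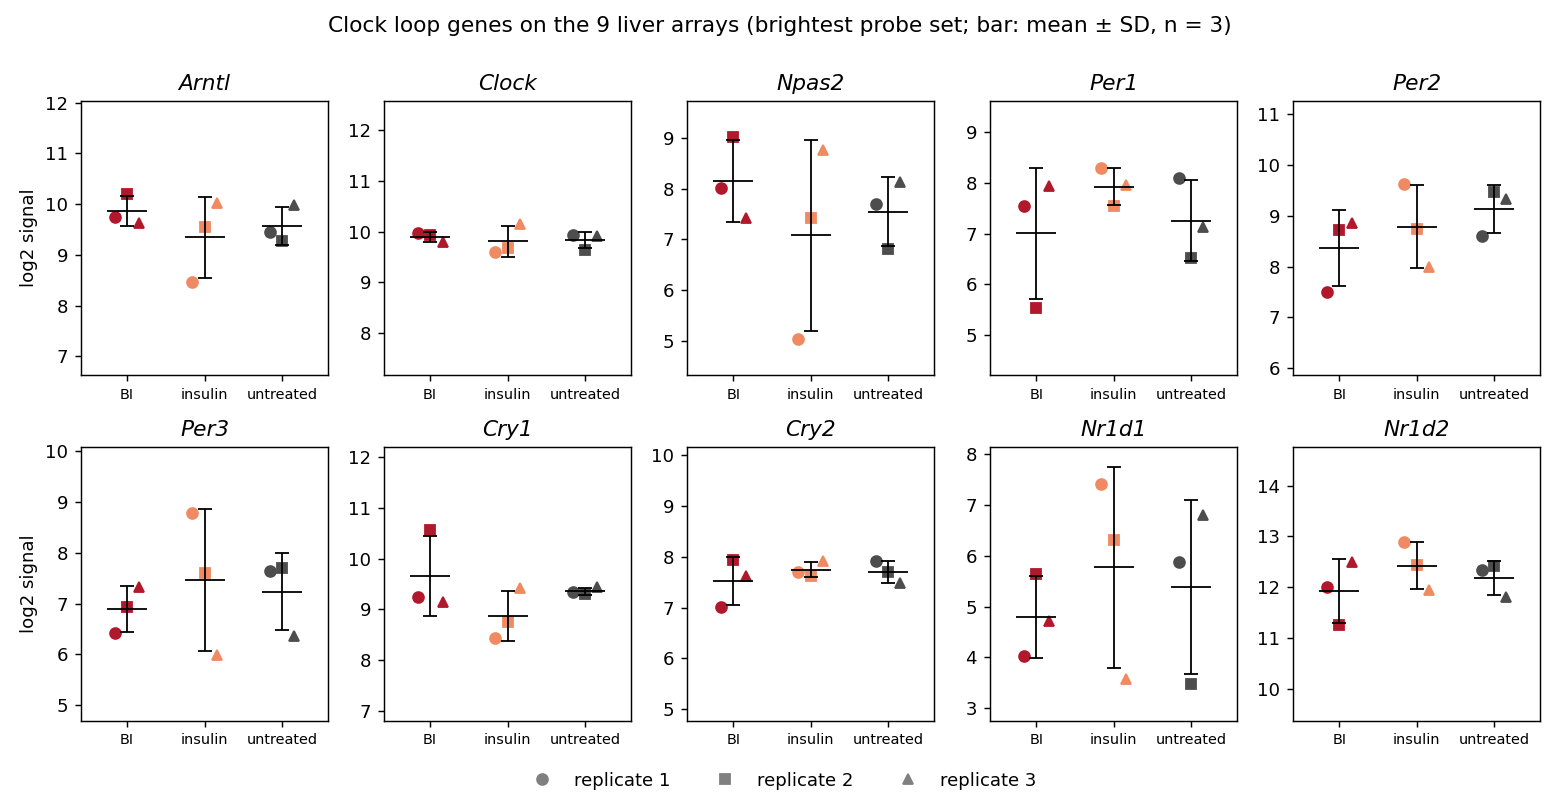
Log2 signal (vertical axes, all of the same height in log2 units) of the brightest probe set of each clock loop gene in the BI, insulin and untreated groups; symbols are the 3 replicates, and the black bars give the mean ± SD (n = 3). The groups overlap in every panel, and insulin replicate 1 is the lowest array for Arntl, Clock, Npas2 and Cry1 and the highest for Per1, Per2, Per3, Nr1d1 and Nr1d2.

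The comparison of BI with no treatment asked whether the mixture shifted the loop. No member passed the limma test (smallest adjusted p 0.999 over 45037 probe sets, where 0.0111% of all probe sets were called), and 0 of 23 member probe sets had an unadjusted p under 0.05, against 4.48% of all. No member probe set had groups that did not overlap, against 9.21% of all. Most estimates were smaller than their errors: Arntl averaged 9.86 ± 0.30 with BI and 9.57 ± 0.37 without treatment (SD, n = 3 each; log2 difference +0.29 ± 0.42, SE from limma), and Npas2 averaged 8.15 ± 0.81 with BI and 7.54 ± 0.68 without treatment (+0.60 ± 0.92). Per2 had the widest difference among the 10 genes, 8.36 ± 0.75 with BI against 9.14 ± 0.47 without treatment (-0.77 ± 0.52, 95% interval -1.997 to 0.45). This difference was -0.34 without BI replicate 1. The other Per2 probe sets did not show it, at -0.062 and -0.0072 in the same comparison. Without BI replicate 2 the differences of Arntl and Npas2 were +0.12 and +0.17, and without untreated replicate 2 they were +0.14 and +0.23. Without untreated replicate 3 they were +0.50 and +0.90, and that of Npas2 was +0.97 without BI replicate 3. For Clock, the most tightly measured member, the 95% interval of the difference was -0.40 to 0.54, while for Nr1d1 it was -3.31 to 2.12.

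Plain insulin was compared with no treatment in the same way. Again 0 of 23 member probe sets passed (limma, smallest adjusted p over the members 1.00), beside 0% of all probe sets, and 0 had an unadjusted p under 0.05, beside 4.47% of all. None had groups that did not overlap, against 9.19% of all. Per1, the period gene that hormones and feeding are known to induce acutely, averaged 7.93 ± 0.37 with insulin and 7.25 ± 0.80 without treatment (log2 difference +0.68 ± 0.67, the largest of the 10). Without untreated replicate 1 the Per1 difference was +1.10 and without untreated replicate 2 it was +0.32. Cry1 averaged 8.87 ± 0.50 with insulin and 9.35 ± 0.07 without treatment (-0.49 ± 0.42), and its difference was -0.27 when insulin replicate 1 was left out and -0.76 when replicate 3 of that group was. The Npas2 difference of -0.47 ± 0.92 was +0.55 without insulin replicate 1, that of Per3, +0.24 ± 0.71 with all arrays, was -0.43 without it, and that of Arntl, -0.22 ± 0.42 with all arrays, was +0.22.

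BI was set against plain insulin to ask whether the 2 preparations differ. No member passed (limma, smallest adjusted p over the members 1.00, beside 0% of all probe sets called), 0 of 23 had an unadjusted p under 0.05, against 4.04% of all, and 0 had groups that did not overlap, against 9.6% of all. The 3 activators and Cry1 had higher means with BI, and the 3 Per genes, Cry2 and both REV-ERB genes had lower ones. Npas2 averaged 8.15 ± 0.81 with BI and 7.07 ± 1.89 with insulin (log2 difference +1.07 ± 0.92). Cry1 averaged 9.65 ± 0.79 with BI and 8.87 ± 0.50 with insulin (+0.79 ± 0.42). Per1 averaged 7.01 ± 1.29 with BI and 7.93 ± 0.37 with insulin (-0.92 ± 0.67), and Nr1d2 11.92 ± 0.63 with BI and 12.42 ± 0.47 with insulin (-0.50 ± 0.38). Single arrays moved these values: without BI replicate 2 the difference was +0.33 for Cry1, -0.19 for Per1, -0.17 for Nr1d2 and +0.64 for Npas2, and without insulin replicate 1 it was +0.05 for Npas2 and -0.27 for Nr1d2. Without insulin replicate 3 it was +1.92 for Npas2, and without BI replicate 3 it was -1.39 for Per1 and -0.79 for Nr1d2. The median difference over the 10 genes was -0.32 here, against -0.03 over all 18193 genes, -0.21 against 0.000385 for BI against no treatment, and 0.01 against 0.02 for insulin against no treatment. These comparisons share arrays, so their signs are not separate findings.

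**Figure D2:**
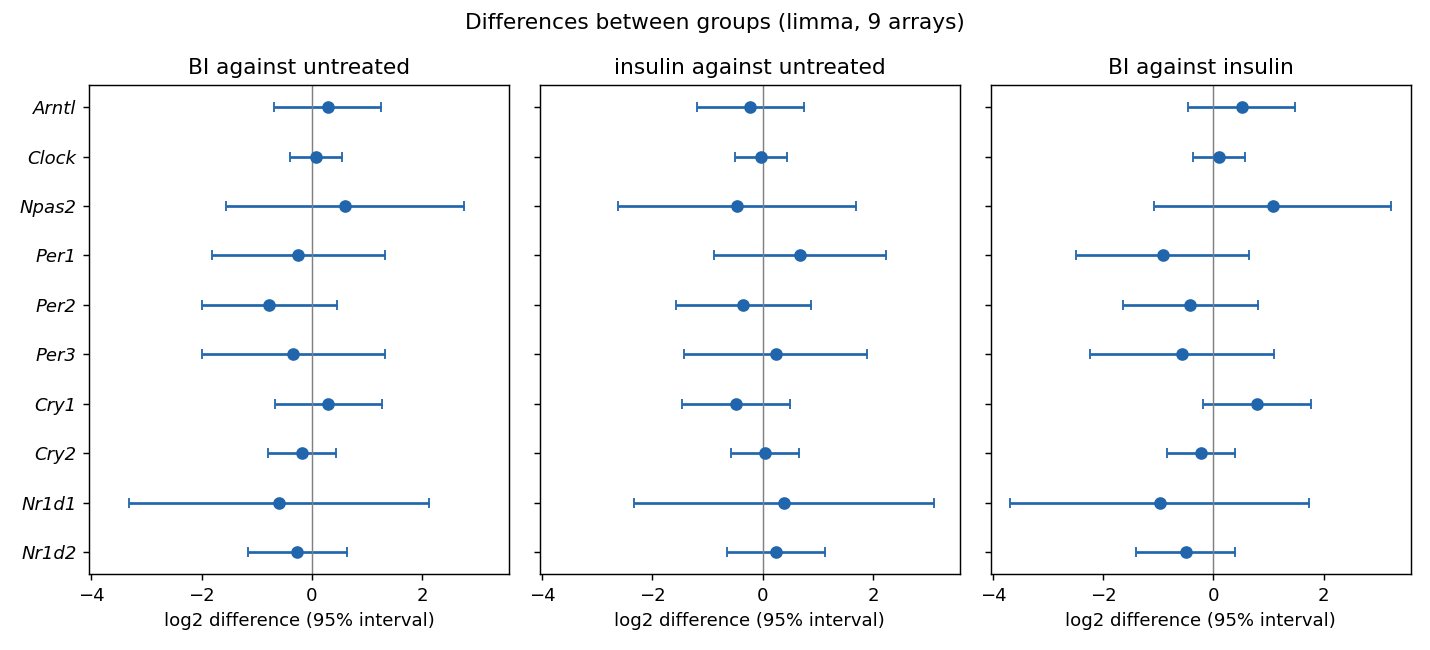
Log2 differences between groups (horizontal axes) for the 10 clock loop genes in the 3 comparisons, from the limma fit of 9 arrays; points are estimates and bars their 95% intervals. Every interval includes 0, and those of Nr1d1 and Npas2 are the widest.

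The moderated F test over the 3 groups gave the same picture, with unadjusted p of 0.229 (Cry1) to 0.888 (Clock) for the 10 genes. Of the 23 probe sets, 0 had an unadjusted p under 0.05, against 4.4% of all, and 0 passed after adjustment, beside 0% of all (limma). The groups accounted for 5.56% (Clock) to 35.0% (Cry1) of a member's variance over the arrays, with a median of 17.2%, against a median of 20.4% over all genes.

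Most loop genes varied widely between arrays of 1 group. The SD within groups was set beside that of the 500 genes nearest in mean level, since dim genes vary more. It exceeded that of 95% or more of these neighbours in 8 of the 10 members. For Npas2 the SD was 1.25, against a neighbour median of 0.30, and no neighbour was higher. Per3 (0.96 against 0.34), Per1 (0.90 against 0.32), Per2 (0.69 against 0.23), Arntl (0.54 against 0.19), Cry1 (0.54 against 0.20) and Nr1d2 (0.49 against 0.16) were likewise above 95% or more of genes of their level. Nr1d1, at a dim level where the neighbour median was 0.81, had an SD of 1.58, above 97.6% of its neighbours. Clock (0.20 against 0.20) and Cry2 (0.31 against 0.29) varied no more than most genes of their level, at percentile 55.4 for both. These percentiles describe the libraries and are no test. Without insulin replicate 1 and BI replicate 2, the arrays at the ends of most members, 3 genes were above 95% or more of their neighbours in place of 8: Npas2 (percentile 95.2), Per2 (95.4) and Per3 (95.2). Nr1d1 was then at 94.0, Per1 at 90.8, Nr1d2 at 89.8, Arntl at 86.8 and Cry1 at 65.8. That pair was chosen after seeing the data.

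**Figure D3:**
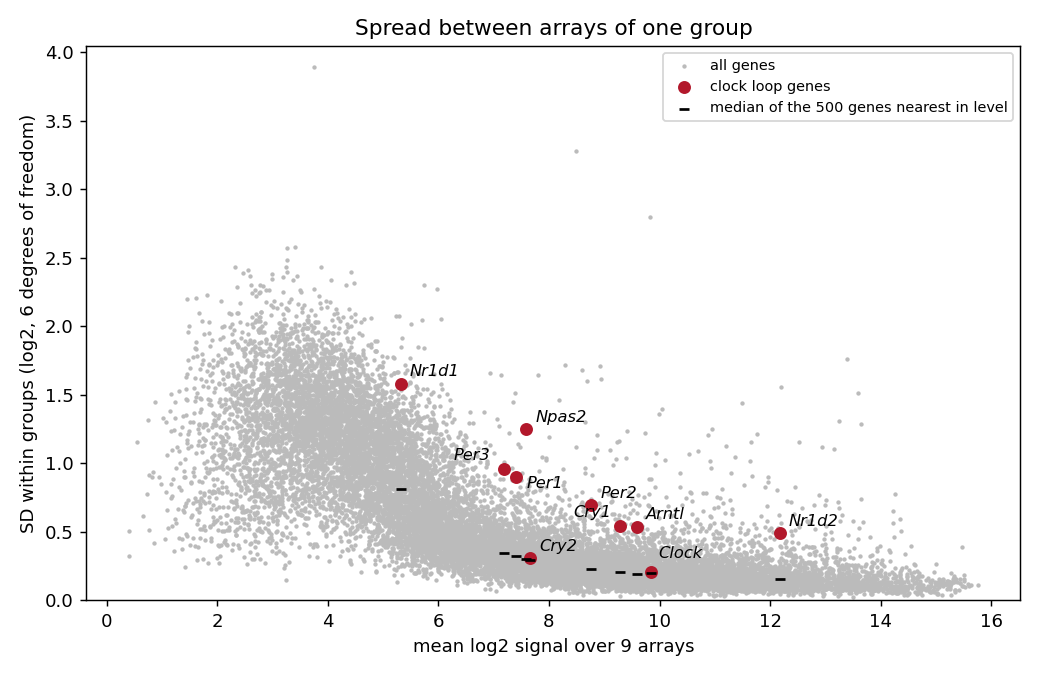
SD within groups (vertical axis, log2, 6 degrees of freedom) against mean log2 signal over the 9 arrays (horizontal axis) for all 18193 genes (grey) and the clock loop genes (red); black dashes mark the median SD of the 500 genes nearest in level to each. Clock and Cry2 lie at their dashes and the other 8 well above them.

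The arrays at the ends were largely the same ones from gene to gene. Insulin replicate 1 was the highest array for 5 members and the lowest for 4, so it stood at an end for 9 of 10, all but Cry2. Over all 18193 genes the same array was at an end for 20.8%. BI replicate 2 was at an end for 6 members, highest for Arntl, Npas2, Cry1 and Cry2 and lowest for Per1 and Nr1d2, against 22.3% of all genes. Insulin replicate 3 lay on the other side from insulin replicate 1: Clock was highest and Per3 lowest there, and Arntl and Npas2 were the second highest of the 9 arrays. Relative to each gene's mean, insulin replicate 1 stood at -2.56 for Npas2, -1.13 for Arntl, +1.60 for Per3, +2.10 for Nr1d1 and +0.71 for Nr1d2. On insulin replicate 3 the same genes stood at +1.18, +0.44, -1.20, -1.74 and -0.23. Per1 (+0.90 and +0.55) and Cry2 (+0.04 and +0.25) were above their means on both of these insulin arrays. For Npas2, Arntl, Per3, Nr1d1 and Nr1d2, these arrays of 1 group therefore lay on opposite sides of the mean. The same held for Per2 (+0.86 and -0.77), Clock (-0.25 and +0.30) and Cry1 (-0.85 and +0.12). How often it holds over all genes was not counted. The untreated group showed a smaller form of this opposition, with replicate 3 at +0.55 for Npas2 and -0.84 for Per3, and replicate 2 at -0.79 and +0.50. Nr1d1 ran the other way on these untreated arrays, at +1.49 on replicate 3 and -1.84 on replicate 2, and neither Per1 (-0.27 and -0.87) nor Per2 (+0.57 and +0.72) changed sign between them. As a measure of RNA quality, the log2 signal of the 3' Gapdh control exceeded that of the 5' control by 0.26 on BI replicate 2, 0.55 on insulin replicate 1 and 0.48 on insulin replicate 3, within a range of 0.26 to 0.65 over the arrays. The part of RNA quality in these values was not tested. The summed level of the hepatocyte markers lay at 17.36 to 17.58 on the BI arrays, 17.36 to 17.51 on the insulin arrays and 17.35 to 17.60 on the untreated arrays. That of 6 endothelial markers was 11.99 to 12.46 on the BI arrays, 12.48 to 12.83 on the insulin arrays, with insulin replicate 1 at 12.82, and 12.11 to 12.62 on the untreated arrays. The other lists moved between arrays too. Over all arrays the sums were 9.84 to 13.21 for neutrophil, 13.16 to 14.23 for Kupffer cell and macrophage and 9.45 to 10.63 for lymphocyte markers. They were 13.07 to 13.69 for stellate cell and fibroblast and 7.76 to 8.98 for cholangiocyte markers. The part of these cell types was not tested.

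**Figure D4:**
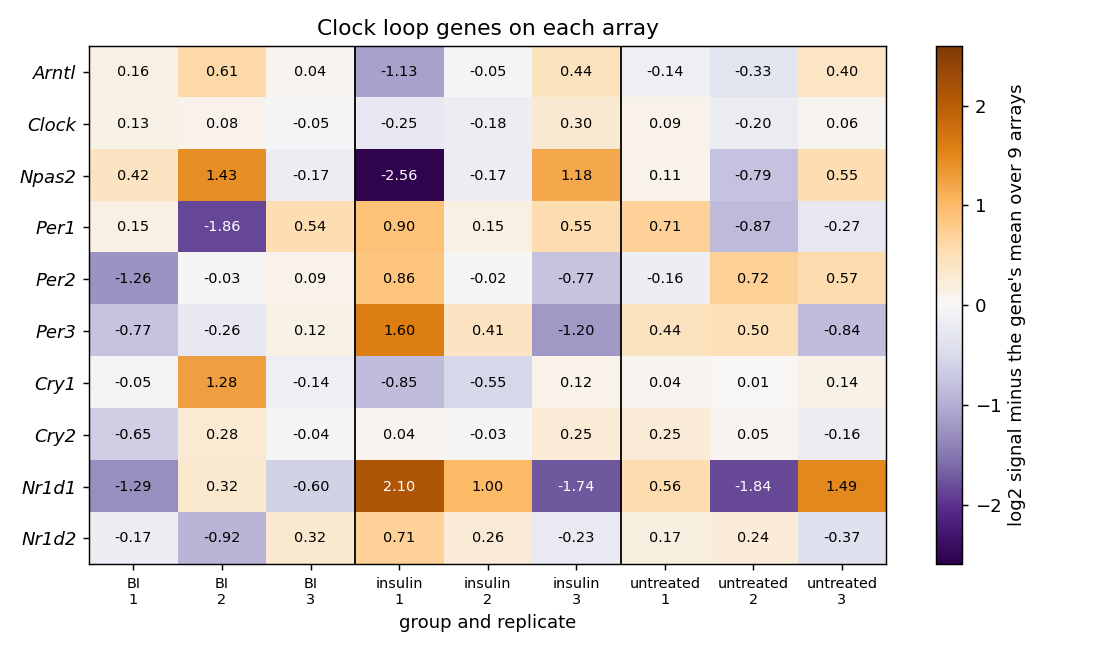
Log2 signal of each clock loop gene minus its mean over the 9 arrays, for every array (columns, grouped as BI, insulin and untreated). Insulin replicate 1 is negative for Arntl (-1.13), Clock, Npas2 (-2.56) and Cry1 and positive for the other 6 genes, while insulin replicate 3 is of the opposite sign for each gene except Per1 and Cry2.

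Covariation over the 9 arrays was measured for the 45 pairs of members, with exact two-sided permutation tests over the arrays and Benjamini-Hochberg adjustment over the 45 pairs. The activators went together: Arntl and Npas2 correlated at Pearson r = 0.981 (exact permutation p = 4.13e-05, adjusted p 0.00186) and Spearman rho = 0.933 (exact permutation p = 0.00075, adjusted 0.0112). Without BI replicate 2 and insulin replicate 1, the arrays farthest from the median of Arntl, r was 0.912. The 2 farthest arrays were taken for the first gene of a pair as the loop is listed: they were the same for Npas2 and Cry1, insulin replicate 1 and untreated replicate 2 for Clock, and insulin replicate 3 and untreated replicate 2 for Nr1d1. Clock and Npas2 correlated at r = 0.821 (exact permutation p = 0.00465, adjusted 0.0262; rho = 0.800, p = 0.0138, adjusted 0.0691; r = 0.712 without the 2 farthest arrays), and Arntl and Clock at r = 0.754 (exact permutation p = 0.0138, adjusted 0.0688; rho = 0.700, p = 0.0433, adjusted 0.150; r = 0.755 without the 2 farthest).

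Each of the 15 pairs of an activator with a Per or REV-ERB gene had a negative r, from -0.887 to -0.0177. Of them, 5 passed the adjusted exact permutation test. The pairs share the activators, and not all signs held without the 2 farthest arrays. For Per1, r was then 0.309 with Arntl, 0.0338 with Clock and 0.504 with Npas2. For Nr1d1 it was 0.113 with Arntl and 0.0103 with Npas2. In deviations from the group means, 14 of the 15 were negative. Arntl with Per3 had r = -0.887 (exact permutation p = 0.00186, adjusted 0.0229) and rho = -0.900 (p = 0.00203, adjusted 0.0183), and r = -0.931 without the 2 farthest arrays. Arntl with Nr1d2 had r = -0.875 (exact permutation p = 0.00292, adjusted 0.0229) and rho = -0.833 (p = 0.00827, adjusted 0.0465), and r = -0.835 without them. Npas2 gave r = -0.869 with Per3 and -0.873 with Nr1d2 (exact permutation p = 0.00277 and 0.00305, both adjusted 0.0229; rho = -0.833 and -0.933, p = 0.00827 and 0.00075, adjusted 0.0465 and 0.0112; r = -0.888 and -0.800 without the 2 farthest). Clock with Per3 had r = -0.854 (exact permutation p = 0.00387, adjusted 0.0249; rho = -0.767, p = 0.0214, adjusted 0.0963; r = -0.758 without the 2 farthest from the median of Clock). Cry1, a repressor whose transcript is known to peak late, had a positive r with each activator, but none passed by Pearson. It was 0.766 with Arntl (exact permutation p = 0.0294, adjusted 0.0890; rho = 0.733, p = 0.0311, adjusted 0.117; r = 0.370 without the 2 farthest arrays), 0.784 with Npas2 (exact permutation p = 0.0252, adjusted 0.0873; rho = 0.833, p = 0.00827, adjusted 0.0465; r = 0.432 without them) and 0.546 with Clock (exact permutation p = 0.120, adjusted 0.284; rho = 0.583, p = 0.108, adjusted 0.256; r = 0.396 without the 2 farthest from the median of Clock). The r of Cry1 with Nr1d2 was -0.913 (exact permutation p = 0.000471, adjusted 0.0106; rho = -0.933, p = 0.00075, adjusted 0.0112), and it rested in part on the end arrays, being -0.605 without BI replicate 2 and insulin replicate 1. In all, 8 of 45 pairs passed by Pearson and 8 by Spearman, but not the same ones: Clock with Npas2 and with Per3 passed by Pearson alone, and Npas2 with Cry1 and Clock with Per2 by Spearman alone (Clock with Per2, rho = -0.917, exact permutation p = 0.00131, adjusted 0.0148; r = -0.740, p = 0.0229, adjusted 0.0873; r = -0.522 without the 2 farthest). None of the pairs of Cry2 or of Nr1d1 passed, with Pearson adjusted p of 0.310 to 0.969 (exact permutation). Nr1d1 with its paralogue Nr1d2 had r = 0.180 (exact permutation p = 0.651, adjusted 0.814; rho = 0.200, p = 0.613, adjusted 0.746; r = 0.272 without the 2 farthest).

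The pattern was also seen within groups. After each group's mean was subtracted, Arntl and Npas2 still correlated at r = 0.978, Arntl and Per3 at -0.884, Arntl and Nr1d2 at -0.845, and Cry1 and Nr1d2 at -0.901. Permuting arrays within groups allows 216 arrangements, and 5 of 45 pairs passed that exact test. They were Arntl with Npas2, with Cry1 and with Nr1d2, Npas2 with Cry1, and Cry1 with Nr1d2. Each had p = 0.00463, the smallest this exact permutation test can give (adjusted 0.0417). Arntl with Per3 did not pass it (exact permutation p = 0.0417, adjusted 0.208). Of the 15 pairs of an activator with a Per or REV-ERB gene, 1 passed within groups, against 5 over all arrays. In the permutation over all arrays by Pearson, which 8 pairs passed, the number that passed was 3 without BI replicate 1, 4 without insulin replicate 1 and 6 to 10 without each other array. It was 1, Arntl with Per3, without both insulin replicate 1 and BI replicate 2.

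**Figure D5:**
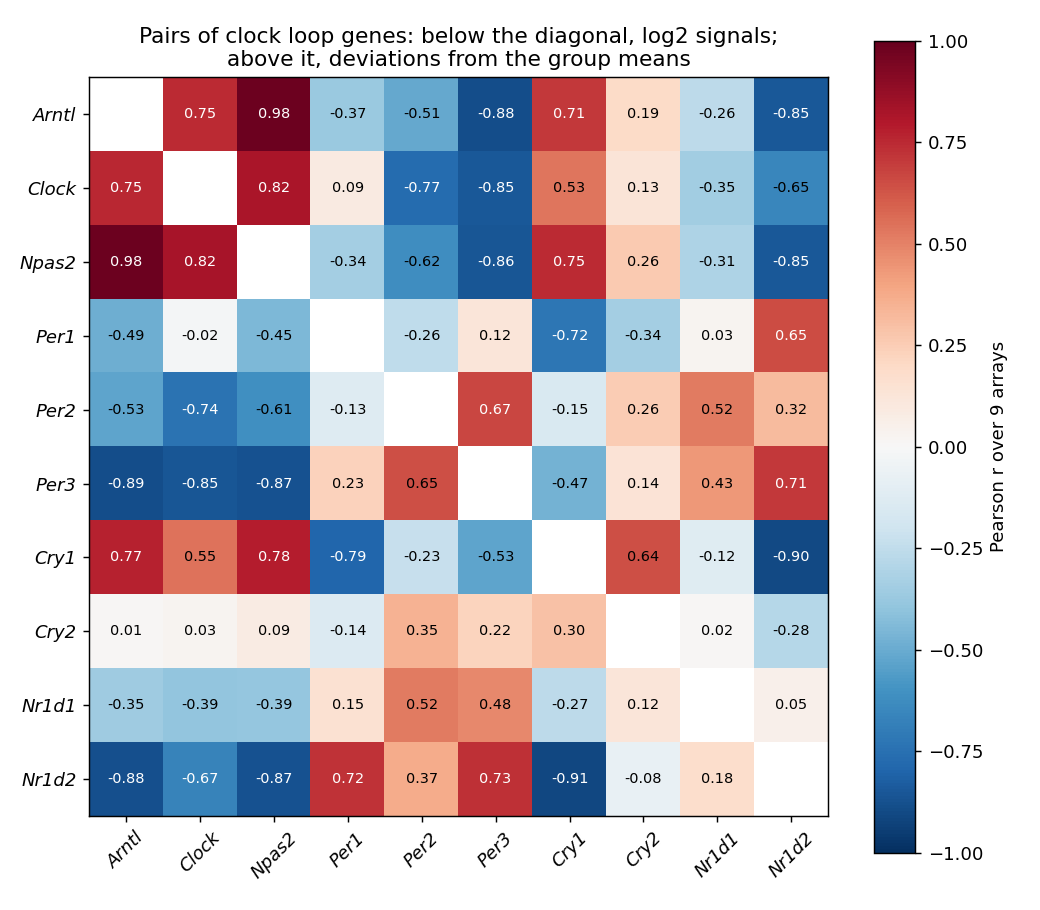
Pearson r over the 9 arrays for the 45 pairs of clock loop genes, below the diagonal from log2 signals and above it from deviations from the group means. Arntl, Clock and Npas2 are positively related to each other (0.754 to 0.981) and negatively to Per3 and Nr1d2, and the parts of the matrix on either side of the diagonal look alike.

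The other probe sets of these genes bore the pattern unevenly. Of 13 such probe sets, 10 had a positive r with the brightest one of their gene over the 9 arrays. All 6 whose mean reached the lowest array median did so: 2 of Per3 (r = 0.864 and 0.825), 1 of Per2 (0.692) and 3 of Clock (0.648, 0.582 and 0.317). The 3 negative ones, of Arntl (r = -0.0145, mean 6.06), Per3 (-0.0604, mean 4.36) and Nr1d2 (-0.358, mean 4.22), had means below the lowest array median of 6.11. The Arntl one, with a median of 6.45 over the arrays, was close to that limit and above the median of all probe sets (6.04). The second Arntl probe set lay at 5.91 to 6.80 on 8 arrays and at 3.36 on BI replicate 3. Of the 13, 5 had the same highest array as the brightest probe set of their gene and 3 the same lowest array. The dim one of Nr1d2 was lowest on insulin replicate 1 (1.45), where the brightest one was highest. When all probe sets of a gene were averaged, 0 of 45 pairs passed the adjusted exact permutation test (smallest adjusted p 0.202), and r of Arntl and Npas2 was 0.0339. Averaging only probe sets of at least the median level of all probe sets, a choice made after seeing the data, left 4 pairs: Npas2 with Per3 (r = -0.924, exact permutation, adjusted 0.0106), Cry1 with Nr1d2 (-0.913, adjusted 0.0106), Clock with Per3 (-0.873, adjusted 0.0330) and Npas2 with Nr1d2 (-0.873, adjusted 0.0344). The covariation of Arntl is thus that of its brighter probe set.

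The likeness of Arntl to all other genes with a mean level of at least the median of probe sets gives these values a scale. Among 11205 such genes, Npas2 was the third most like Arntl over the 9 arrays, after Pxmp4, a peroxisomal membrane protein (r = 0.991), and Ypel2 (0.982) and ahead of Ube2u (0.967) and Clpx, a subunit of a mitochondrial protease (0.962). Cry1 ranked 124 and Clock 144 from the top. At the other end Per3 ranked 12 and Nr1d2 15 from the bottom, while Per2 (917) and Per1 (1149) were less extreme. The lowest r belonged to Fxyd3 (-0.954), Aimp2, a scaffold of the tRNA synthetase complex (-0.946), Nubp2 (-0.936), Mrpl20, a mitochondrial ribosomal protein (-0.925), and Spcs1, a signal peptidase subunit (-0.919). Nr1d1, the dim member, had no member near its ends: the genes most like it were Txlng (0.948), Lpin2, a phosphatidate phosphatase (0.942), Dnajc17 (0.937), Cers5, a ceramide synthase (0.931), and Kmt2d, a histone methyltransferase (0.896), and those least like it were Rad51b (-0.952), Dync1li1 (-0.939), Tada2b (-0.936), Gpat3, an acyltransferase of triglyceride synthesis (-0.932), and Ctso (-0.931). Its closest members were Per2 at rank 1273 and Per3 at rank 1540 of 11206. These are descriptions over 9 arrays, and no test was made of them.

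Genes downstream of and around the loop were read from 4 lists. In the PAR bZIP family, whose genes are driven by E-boxes and whose proteins bind D-boxes like those printed for Per3, Dbp had 8.09, 7.28 and 9.65 on the BI arrays, 11.77, 9.52 and 7.32 on the insulin arrays, and 10.41, 8.98 and 7.31 on the untreated arrays. Like Per3, it was highest on insulin replicate 1. Its likeness to Arntl was r = -0.907 and that of its relative Tef -0.886 over the 9 arrays. That of the third family member, Hlf, was -0.0111. Dbp and Tef were picked once their values had been seen. Over the 13 measured output genes, r with Arntl ran from -0.907 to 0.602, negative for 9 and positive for 4. None of the 13 measured output genes passed in any comparison (limma), the 3 of smallest p over the groups being Cyp7a1, the rate-limiting enzyme of bile acid synthesis, Hlf and Nampt, which makes a precursor of NAD. Cyp7a1 had 10.76, 10.82 and 10.91 with BI, 11.71, 12.14 and 11.31 with insulin, and 11.49, 12.16 and 13.06 without treatment. Its difference of BI against untreated was -1.41 ± 0.40 (limma adjusted p 0.923), and here the BI arrays lay below all others. Of all probe sets, 9.21% had groups that did not overlap for BI against untreated and 9.6% for BI against insulin. The groups accounted for 65.6% of the variance of this probe set and 37.5% of that of the other Cyp7a1 probe set. Hlf stood at -0.57 ± 0.20 with insulin against no treatment (limma adjusted p 1.00) and Nampt at +0.44 ± 0.28.

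Of the 7 other measured regulators of the loop, none passed in any comparison (limma). Bhlhe41, a repressor that competes for E-boxes, had 6.48, 5.32 and 5.66 with BI, 6.45, 5.40 and 5.58 with insulin, and 4.98, 4.61 and 4.05 without treatment. Both treated groups lay above the untreated one, at +1.27 ± 0.42 for BI (limma adjusted p 0.999) and +1.26 ± 0.42 for insulin (adjusted p 1.00). These levels were mostly below the array medians, and both differences used the same untreated arrays. Of all probe sets, 9.21% had groups that did not overlap for BI against untreated and 9.19% for insulin against untreated. Rorb stood at +2.33 ± 0.75 with BI against insulin (limma adjusted p 1.00), at group means of 5.57 and 3.24, and Rora, the receptor that opposes REV-ERB on shared elements, at -0.38 ± 0.20 with BI against no treatment. Among 16 measured kinases, ligases and cofactors of clock proteins and 11 measured genes of systemic cues (temperature and glucocorticoid), none passed either (limma). Gsk3a, a kinase that insulin signalling inhibits, stood at +0.36 ± 0.17 with insulin against no treatment, Fbxl21, a ligase of cryptochromes, at +1.44 ± 0.50 with BI against insulin, and Btrc, a ligase of PER proteins, at -0.56 ± 0.37 with BI against no treatment. Of the cue genes, Fkbp5, induced by glucocorticoids, stood at +0.23 ± 0.26 with insulin against no treatment, the chaperone Hsp90aa1 at -0.14 ± 0.17 and the heat shock gene Hsph1 at +0.06 ± 0.35. Their SDs within groups were 0.30, 0.13 and 0.44. Other cue genes varied more between arrays of 1 group, with an SD of 1.64 for Hspa1a, 1.56 for Hspa1b, 1.76 for Mt1 and 1.51 for Mt2. These were named for their wide spread, and their SDs were not set beside genes of like level. The median r with Arntl over the 9 arrays was -0.191 over the output genes, -0.203 over the other regulators, -0.133 over the cue genes and -0.00161 over the modifiers, against -0.0205 over all genes.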

How the data were processed

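Liver RNA of 9 samples was labelled with biotin and hybridised to one-colour Affymetrix arrays, per the labels' protocols. Signals were deposited by the authors on a log2 scale, 1 per probe set. No source used here names their software. The linear signals have a 2% trimmed mean of 500.004 on every array, and 152 to 247 probe sets per array lie at 0. The values were used as deposited. Of 45101 probe sets, 64 controls were left out. Symbols came from the platform annotation, updated by gene ID (34945 probe sets with 1 symbol). Of several probe sets for a gene, the brightest on average stands for it.

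Groups and replicate numbers came from the sample titles. One limma fit (version 3.58.1, R 4.3.3, 6 residual degrees of freedom) of all 9 arrays gave the 3 two-sided comparisons and the F test, adjusted (Benjamini-Hochberg) over 45037 probe sets with a threshold of 0.05. The methods were tested on simulated data. The members, the lists and the rule for named genes (all members, and the 3 genes of smallest F p per list) were chosen with earlier results of these data known. Dbp and Tef lie outside that rule: they were picked once their values had been seen. Hspa1a, Hspa1b, Mt1 and Mt2 lie outside it too and were named for their wide spread. Same-numbered arrays of different groups did not deviate together (r of -0.0336 to 0.0355 over all probe sets), so the numbers were not taken as pairs. The number of arrays limits the precision. Other settings were normalization, variance model, weights, filters, probe set averaging and left-out arrays.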

Additional observations from a re-analysis of the deposited data

How the results depend on the processing

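The numbers of member probe sets past the threshold stayed at 0 in all 3 comparisons and in the F test (limma) under equal array medians, quantile normalization, a filter on dim probe sets, trend and robust variance, array weights, averaged probe sets, the groups compared alone (comparisons only) and each array left out. With the replicate block they were 0 too, and same-numbered arrays share only a number. Over 507 recomputed values of the 30 member differences, 0 were called (smallest adjusted p 0.964) and 32 changed sign, in 21 differences, so no direction between groups should be read from the members.

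With equal array medians the Cry2 log2 difference of insulin against no treatment was -0.0077. With averaged probe sets, which bring in dim ones, insulin against no treatment gave 0.053 for Arntl, 0.175 for Npas2 and -0.842 for Nr1d2, BI against no treatment gave -0.161 for Arntl, and BI against insulin gave -0.214 for Arntl, 0.290 for Per2 and 0.199 for Nr1d2. The r of Npas2 and Nr1d2 was then 0.459 and that of Cry1 and Nr1d2 0.105, and 0 pairs passed.

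Leaving out 1 array at a time, BI against no treatment ranged from -0.024 to 0.123 for Clock, -0.714 to 0.488 for Per1, -0.157 to 0.552 for Cry1, -0.389 to 0.077 for Cry2, -1.55 to 0.116 for Nr1d1 and -0.554 to 0.068 for Nr1d2. Insulin against no treatment ranged from -0.565 to 0.216 for Arntl, -0.197 to 0.077 for Clock, -1.32 to 0.549 for Npas2, -0.770 to 0.045 for Per2, -0.429 to 0.972 for Per3, -0.058 to 0.150 for Cry2 and -0.567 to 1.48 for Nr1d1. BI against insulin ranged from -0.0076 to 0.266 for Clock, -0.818 to 0.0073 for Per2, -1.31 to 0.093 for Per3 and -0.435 to 0.031 for Cry2.

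The number of pairs past the adjusted exact permutation test, 8 with all arrays, was 5 for deviations from the group means and 3 to 10 with 1 array left out. Chosen after seeing the data, probe sets of at least median level gave 4, and leaving out insulin replicate 1 and BI replicate 2 together gave 1. The number of members at or above the 90th percentile of spread, 8 with all arrays, was 6 with averaged probe sets, 7 to 8 with 1 array left out and 5 without those arrays. The cause of these shifts was not tested. With 3 arrays a group, the 95% intervals of member differences reach 0.47 (Clock) to 2.72 (Nr1d1) log2 units to either side, and dim probe sets carry the least information.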
